A study of Homo sapiens with 6 samples.

Results

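The nuclear-encoded subunits of the mitochondrial respiratory chain were examined in T24 bladder cancer cells after transfection with siRNAs against the circular RNA circ235. The set was chosen by gene name. It held the protein-coding genes of GENCODE release 29 whose symbols mark them as subunits of complex I (the NDUF genes), complex II (SDHA to SDHD), complex III (CYC1 and the UQCR genes), complex IV (COX4 to COX8) or complex V (the ATP5F1, ATP5M and ATP5P genes). Of 58288 gene identifiers in the count table, 88 met the rule, and 80 of these were among the 14415 genes with enough counts to be tested. Complex I had 37 members, complex II had 4, complex III had 10, complex IV had 18 and complex V had 19. NDUFA4 was placed in complex IV, since its product is a subunit of cytochrome c oxidase despite its name.

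The respiratory chain passes electrons from NADH through complex I, and from succinate through complex II, by way of ubiquinone, complex III and cytochrome c to complex IV, which reduces oxygen. Complexes I, III and IV pump protons across the inner mitochondrial membrane, and complex V uses the gradient to make ATP. Most subunits are encoded in the nucleus and imported, while a few hydrophobic core subunits of complexes I, III, IV and V, but none of complex II, are encoded by mitochondrial DNA.

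T24 is an established human bladder cancer cell line, and every library came from it. The study set out to find genes downstream of circ235, a circular RNA made from exons of CCNY that was proposed to bind miR-330-5p. Cells received a control siRNA (NC, siControl in the labels) or siRNAs of different sequence against the back-splice junction of circ235 (si-circ235-1 and si-circ235-2, siRNA1 and siRNA2 in the labels), with 2 libraries per condition. The labels call the libraries biological replicates without saying what was repeated, so p-values measure the spread between these libraries.

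Polyadenylated RNA was sequenced without strand information, and the libraries held 15373992 to 19912893 counts. Circular RNA lacks a poly(A) tail, and the knockdown itself could not be read from these counts. The epithelial keratins KRT7, KRT8 and KRT18 were high, with a summed level of the epithelial markers of 3060 to 5570 CPM (counts scaled to a common library total) per library. The other epithelial markers were low or near 0, with KRT19 at 0.0611 CPM or less, CDH1 at 0.287 CPM or less and EPCAM at 1.28 to 2.93 CPM. Of 6 urothelial markers, 5 were near or under 1 CPM, and PPARG alone lay between 22.6 and 51.1 CPM. PTPRC, CD3E, HBB and HBA1 were at 0 counts in every library, and the summed endothelial markers reached at most 2.62 CPM. The levels below are CPM after TMM scaling, a correction of the library totals for differences in composition.

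All 12 general subunit genes of complex IV, all of complexes I, II and III and 17 genes of complex V passed the filter on low counts. Per kilobase of transcript, the scale on which different genes can be compared, COX4I1 stood highest in NC at 1590 CPM per kb, followed by ATP5F1D at 1160 CPM per kb and NDUFS5 at 819 CPM per kb. The median over the tested members was 151 CPM per kb in NC, 188 CPM per kb in si-circ235-1 and 90.3 CPM per kb in si-circ235-2. COX4I1 encodes the general form of a subunit that binds regulatory nucleotides in complex IV, and ATP5F1D encodes the delta subunit of the rotor stalk of ATP synthase.

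Tissue-restricted isoforms were at or close to 0. COX4I2, the isoform of lung and of oxygen-limited cells, had 0 counts in every library, as had COX6A2, COX7B2 and COX8C. COX7A1, the heart and muscle isoform, had 5 and 3 counts in NC, 1 and 6 counts in si-circ235-1, and 1 count in each si-circ235-2 library. Its general counterpart COX7A2 lay at 128 CPM or above in every library. COX6B2 had 5 to 19 counts per library. The last 2 members not tested, ATP5MF-PTCD1 and ATP5MGL, a readthrough gene and a copy of ATP5MG, had at most 3 counts in any library.

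Under si-circ235-2 most of these genes were lower than in NC. Of the 80 tested members, 58 were called lower and 1 was called higher at an adjusted p under 0.05 (edgeR, quasi-likelihood test, Benjamini-Hochberg over all genes tested). Over all 14415 genes 15.7% were called lower and 15.7% higher. The median log2 fold change of the members was -0.998, a level 1.997-fold lower, against 0.00 over all genes. Every library of si-circ235-2 lay below both NC libraries for 67 of the 80 members, a pattern that 35.0% of all genes tested showed. The 58 genes called lower were all among these 67. In bulk RNA, fewer cells with a given level and less RNA per cell cannot be told apart.

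The shift was not shared by all complexes. Complex III had 9 of 10 members lower with a median log2 fold change of -1.31, complex I had 29 of 37 lower with a median of -1.02, and complex IV had 11 of the 12 tested lower with a median of -0.99. In complex V 9 of 17 were lower, with a median of -0.77. None of the 4 members of complex II passed the test in either direction, and their median was -0.08.

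**Figure D1:**
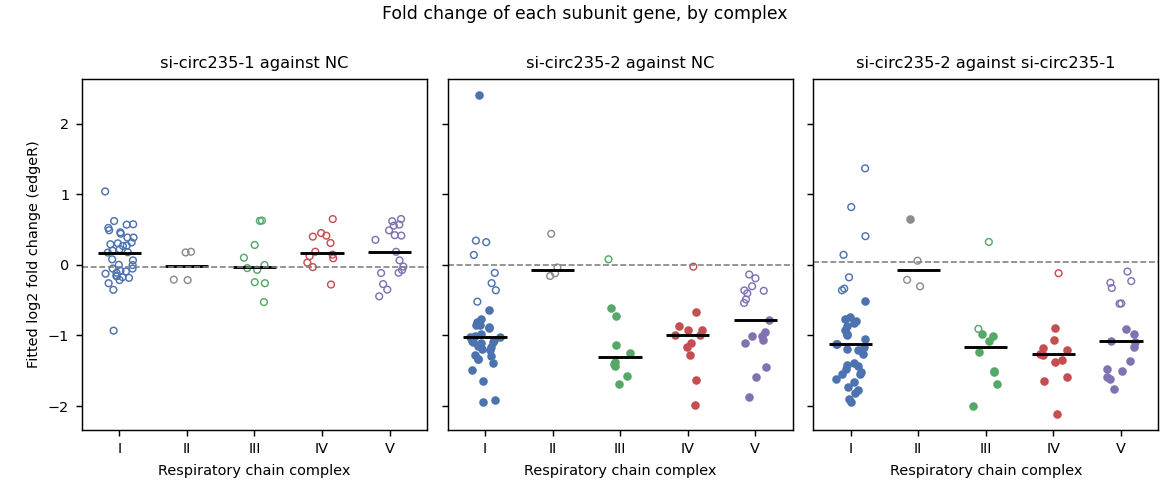
Fitted log2 fold change (vertical axis) of each tested subunit gene by complex (horizontal axis) in the 3 comparisons, with filled points for genes called by edgeR at an adjusted p under 0.05, open points for the others, black bars for the median of a complex and a dashed line for the median of all genes tested. The medians under si-circ235-2 against NC run from -1.31 in complex III to -0.08 in complex II, and the single filled point above 2 is NDUFA7, a gene with few counts.

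The NC libraries themselves differed over these genes: NC replicate 2 lay below NC replicate 1 for 74 of the 80 members, with a median log2 ratio of -0.45. The si-circ235-2 libraries lay below NC replicate 2 as well, by a median of -0.58 in replicate 1 (69 of 80 members lower) and of -0.86 in replicate 2 (75 of 80 lower). Against NC replicate 1 the medians were -1.02 and -1.32. Without NC replicate 1 the median stayed at -0.74 but 17 members were called lower, against 2.23% of all genes tested in that fit. Of these 17, complex I held 7, complex III 5, complex IV 2 and complex V 3. Of the 19 called members that the rule for named genes selects in this comparison, the 8 that kept it without NC replicate 1 were NDUFV1, NDUFB7, CYC1, UQCRB, UQCRH, COX6B1, ATP5F1D and ATP5MC1, and the other 11 had edgeR adjusted p from 0.053 to 0.321. Leaving out replicate 2 of si-circ235-2 left 40 members lower, against 11.5% of all genes, and leaving out NC replicate 2 left 58.

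As a share of all counts, the 88 members together took 1.70% and 1.45% in the NC libraries, 1.59% and 1.81% in si-circ235-1, and 1.09% and 0.964% in si-circ235-2. Both si-circ235-2 libraries were thus under every other library on this scale, which uses no scaling factor. Complex II went the other way on this scale, with 0.0684% and 0.0635% in si-circ235-2 against 0.0508% and 0.0588% in NC, whereas after TMM scaling its median log2 fold change was -0.08.

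**Figure D2:**
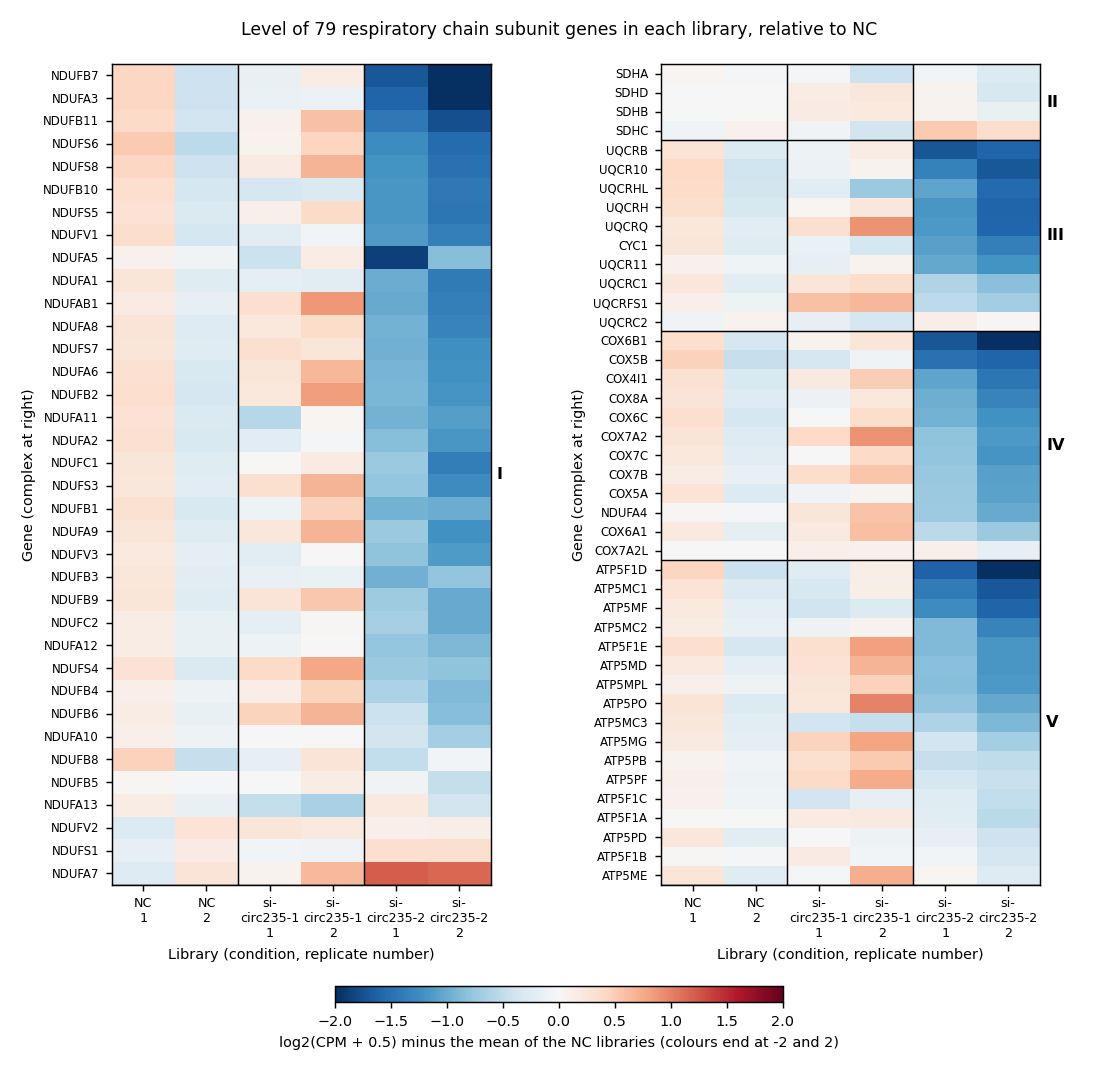
Level of the tested subunit genes, with 1 gene of complex I not drawn (rows, by complex and sorted by the fold change under si-circ235-2) in each of the 6 libraries (columns), as log2(CPM + 0.5) minus the mean of the NC libraries, blue for lower and red for higher. The si-circ235-2 columns are blue for most rows outside complex II, NC replicate 2 is lower than NC replicate 1 for most genes, and NDUFS1, SDHC and NDUFA7 are higher in both si-circ235-2 libraries than in both NC libraries.

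In complex I, 25 of the 30 accessory subunit genes and 4 of the 7 core subunit genes were lower under si-circ235-2, with medians of -1.04 and -1.02. NDUFB7, an accessory subunit of the membrane arm (chromosome 19, 14566078 to 14572062, minus strand, GRCh38), had the largest fall among called genes of this complex. It lay at 99.4 and 56.2 CPM in NC, 67.4 and 82.6 CPM in si-circ235-1, and 22.8 and 17.6 CPM in si-circ235-2. The si-circ235-2 libraries did not overlap with any other, and the gene was 3.85-fold lower than in NC (log2 fold change -1.95 ± 0.28 SE, n = 2 libraries per condition, edgeR adjusted p = 0.00200).

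NDUFAB1, the mitochondrial acyl carrier protein that is also a complex I subunit, lay at 151 and 121 CPM in NC and at 66.7 and 52.0 CPM in si-circ235-2. Its si-circ235-1 libraries, at 170.5 and 247 CPM, were the highest of the 6. It fell by 1.19 on the log2 scale against NC (SE 0.23, edgeR adjusted p = 0.00469).

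The core subunits of the NADH-oxidising arm carry the flavin and the iron-sulfur clusters, and they split. NDUFV1, which binds NADH and the flavin, lay at 413 and 251 CPM in NC, 277 and 311 CPM in si-circ235-1, and 146 and 124 CPM in si-circ235-2 (log2 fold change -1.30 ± 0.24 SE, edgeR adjusted p = 0.00432). NDUFS1, the largest iron-sulfur subunit, lay at 79.2 and 100.4 CPM in NC and at 113 and 112 CPM in si-circ235-2, with a log2 fold change of 0.32 that did not pass the test (SE 0.18, edgeR adjusted p = 0.203). The si-circ235-2 libraries of NDUFS1 were above both NC libraries, so the fall of NDUFV1 had no counterpart in NDUFS1.

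Of the other core genes, named here after their values were seen, NDUFS3, NDUFS7 and NDUFS8 were called lower, with log2 fold changes of -1.02, -1.15 and -1.39. NDUFV2 was not called and had under 1 CPM in every library, and 41.1% of its exon bases are shared with AP005263.1, and how reads that fit both genes were counted is not given in the study's description.

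NDUFA7 was the only member called higher under si-circ235-2 (log2 fold change 2.41, edgeR adjusted p = 0.0442), and it was named after its values were seen. It had 58 counts over all 6 libraries, and 78.7% of its exon bases overlap other genes, 75.9% the readthrough gene AC010323.1. Its level ran from 0.0656 to 1.06 CPM, and the call was lost without either NC library, without either si-circ235-2 library, with DESeq2 and with the replicate block. NDUFA13 and NDUFB8 of complex I and ATP5ME of complex V, each at 7.65 CPM or less in every library, share 32.9% to 65.4% of their exon bases with other genes, and none of these 3 was called.

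Complex II, succinate dehydrogenase, links the citric acid cycle to the chain. SDHA, its flavoprotein subunit, lay at 287 and 274 CPM in NC, 275 and 208 CPM in si-circ235-1, and 271 and 232 CPM in si-circ235-2, where both were just under the NC libraries. SDHB, the iron-sulfur subunit, lay at 123 and 121 CPM in NC and at 128 and 110.1 CPM in si-circ235-2, so its groups overlapped. SDHD, a membrane anchor, likewise overlapped, at 49.9 and 49.7 CPM in NC and 52.1 and 39.6 CPM in si-circ235-2. The log2 fold changes of these 3 genes under si-circ235-2 were -0.16, -0.04 and -0.12, each with an SE of at most 0.20 and none past the threshold (lowest edgeR adjusted p = 0.582).

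SDHC, the other membrane anchor (chromosome 1, 161314257 to 161375340, plus strand), was the exception in this complex. It lay at 112 and 125 CPM in NC, 113 and 91.8 CPM in si-circ235-1, and 169.9 and 151 CPM in si-circ235-2, the si-circ235-2 libraries being the highest. The rise against NC did not pass the test (log2 fold change 0.44 ± 0.19 SE, edgeR adjusted p = 0.0951), and that against si-circ235-1 did (0.65 ± 0.19 SE, edgeR adjusted p = 0.0184). The latter call was lost without replicate 2 of si-circ235-1, without replicate 1 of si-circ235-2 and with the GC trend alone removed.

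In complex III, the 6 small subunit genes were all lower under si-circ235-2, with log2 fold changes from -1.69 to -1.13. UQCRB, a ubiquinone-binding subunit (chromosome 8, 96225920 to 96235634, minus strand), fell most. Its level was 226 and 156 CPM in NC, 174 and 207 CPM in si-circ235-1, and 57.1 and 61.2 CPM in si-circ235-2. The last pair did not overlap with the other libraries, and the gene was 3.22-fold lower than in NC (log2 fold change -1.69 ± 0.22 SE, edgeR adjusted p = 0.00179).

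The catalytic subunits of complex III moved in the same direction. CYC1, cytochrome c1, lay at 532 and 378 CPM in NC and at 210.2 and 173 CPM in si-circ235-2 (log2 fold change -1.24 ± 0.22 SE, edgeR adjusted p = 0.00373). UQCRFS1, the Rieske iron-sulfur protein, fell less against NC. It lay at 289.7 and 252 CPM in NC, 407 and 429 CPM in si-circ235-1, and 188 and 166 CPM in si-circ235-2, with 3 levels that did not overlap (against NC, log2 fold change -0.61 ± 0.19 SE, edgeR adjusted p = 0.0295).

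The core proteins of complex III, relatives of processing peptidases with no redox centre, differed from each other. UQCRC1 lay at 708 and 516 CPM in NC and at 400.04 and 339 CPM in si-circ235-2 (log2 fold change -0.73 ± 0.22 SE, edgeR adjusted p = 0.0291). UQCRC2, named after its values were seen as the single member of this complex not called lower, lay at 180.4 and 197 CPM in NC and at 207 and 192 CPM in si-circ235-2. UQCRH, the hinge protein that joins cytochrome c1, fell by 1.41 on the log2 scale. UQCRHL, a retrocopy of UQCRH, fell by 1.43 at 4.90 and 3.30 CPM in si-circ235-2, but reads of the pair can be split between these near-identical copies.

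In complex IV, COX6B1, a subunit on the intermembrane face (chromosome 19, 35648223 to 35658861, plus strand), showed the largest fall of any member called. It lay at 523 and 329 CPM in NC, 438 and 489.8 CPM in si-circ235-1, and 127 and 88.2 CPM in si-circ235-2. All si-circ235-2 values were below every other library, 3.97-fold lower than in NC (log2 fold change -1.99 ± 0.27 SE, edgeR adjusted p = 0.00179).

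COX4I1, the most abundant member, lay at 1535 and 998 CPM in NC, 1395 and 1744 CPM in si-circ235-1, and 595 and 454 CPM in si-circ235-2 (against NC, log2 fold change -1.27 ± 0.27 SE, edgeR adjusted p = 0.00665). COX5A fell by 0.92 on the log2 scale, COX7A2 by 0.99 and NDUFA4 by 0.87, and these calls held at edgeR adjusted p of at most 0.0127. COX6A1 fell by 0.66 with an edgeR adjusted p of 0.0474, close to the threshold. COX7A2L, which takes part in joining complexes III and IV into supercomplexes, was the single tested member of complex IV not called, at 207 and 206 CPM in NC and 222 and 184 CPM in si-circ235-2 (log2 fold change -0.03 ± 0.18 SE).

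All 3 genes of the c ring, the proton-driven rotor, were lower under si-circ235-2, with log2 fold changes of -1.58 for ATP5MC1, -1.10 for ATP5MC2 and -0.77 for ATP5MC3. ATP5MC1 lay at 181 and 123 CPM in NC and at 56.0 and 45.5 CPM in si-circ235-2. In the catalytic head and its central stalk 2 of 5 genes were lower, in the membrane part 3 of 5, and in the peripheral stalk 1 of 4, and differences between these parts were not tested. With the length and GC trend removed, as described further on, their medians lay closer together, at -0.70 for the c ring, -0.61 for the head and central stalk, -0.78 for the membrane part and -0.42 for the peripheral stalk.

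The subunits that form the catalytic sites were not called. ATP5F1B, the beta subunit that carries the catalytic sites, lay at 1173 and 1125 CPM in NC, 1292 and 1109.6 CPM in si-circ235-1, and 1106 and 909 CPM in si-circ235-2 (log2 fold change -0.19 ± 0.22 SE, edgeR adjusted p = 0.538). ATP5F1A, the alpha subunit, lay at 774 and 760.2 CPM in NC and at 665 and 529 CPM in si-circ235-2 (log2 fold change -0.36 ± 0.21 SE, edgeR adjusted p = 0.207). ATP5F1D (chromosome 19, 1241746 to 1244826, plus strand) lay at 1053 and 578 CPM in NC, 659 and 846 CPM in si-circ235-1, and 255 and 189.6 CPM in si-circ235-2, the largest fall in the complex (log2 fold change -1.88 ± 0.30 SE, edgeR adjusted p = 0.00267). With the length and GC trend removed ATP5F1A was called lower as well, at -0.66 (edgeR adjusted p = 0.00827), beside ATP5F1D at -0.61.

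**Figure D3:**
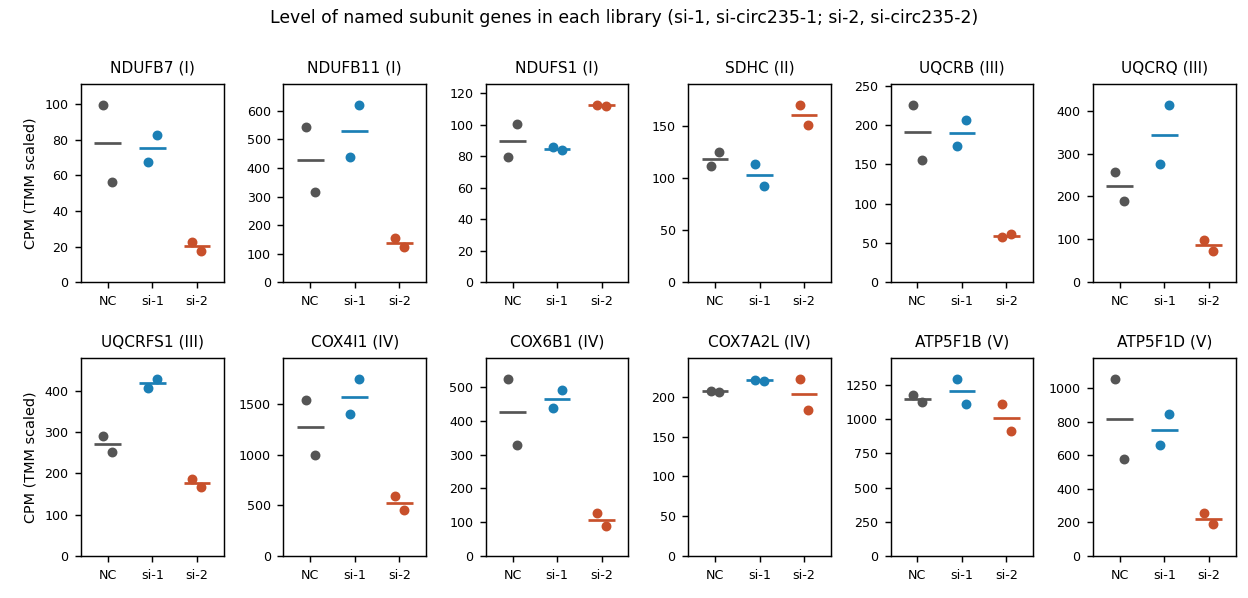
Level in CPM (vertical axis, starting at 0) of 12 subunit genes in each library, with points for libraries and bars for the mean of the 2 libraries of NC, si-circ235-1 (si-1) and si-circ235-2 (si-2). COX6B1, NDUFB7, UQCRB and ATP5F1D lie lower in both si-circ235-2 libraries than in any other, whereas COX7A2L and ATP5F1B change little and SDHC and NDUFS1 are highest there.

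Under si-circ235-1 the same genes gave no call in either direction, which does not show that they were unchanged. Of 80 members, 0 were called higher and 0 lower by edgeR, where 2.24% of all genes tested were called higher and 3.64% lower. At an unadjusted p under 0.05 there were 12 members, all higher, where 1593 of the 14415 genes were higher and 2051 lower. DESeq2 called 2 members higher, UQCRFS1 and ATP5PF, among 714 genes called higher. The median log2 fold change was 0.13, and it ranged from 0.00 without NC replicate 2 to 0.38 without NC replicate 1. Both si-circ235-1 libraries lay above both NC libraries for 22 members, a share close to the 26.2% of all genes tested, and below both for 5. UQCRFS1 had the lowest edgeR adjusted p of the set, 0.0712, with a log2 fold change of 0.63 ± 0.19 SE.

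The siRNAs were also compared with each other, without the NC libraries in the contrast. Here 60 of 80 members were lower in si-circ235-2 and 1 was higher (SDHC), against 18.6% lower and 21.1% higher of all genes tested. The median log2 fold change was -1.12, and for 69 members both si-circ235-2 libraries were below both si-circ235-1 libraries, as for 33.7% of all genes. By complex, 30 of 37 members of complex I, 8 of 10 of complex III, 11 of 12 of complex IV and 11 of 17 of complex V were lower, and none of complex II. Leaving out any NC library changed the count to at most 61, and leaving out a library of these conditions gave 48 to 59. This contrast shares its si-circ235-2 libraries with the contrast against NC, so it is not a separate measurement of them.

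NDUFB11, a membrane-arm subunit of complex I (chromosome X, 47142216 to 47145504, minus strand), fell most in complex I in this contrast. It lay at 439.9 and 620.4 CPM in si-circ235-1 and at 153 and 122 CPM in si-circ235-2, with NC at 543 and 316 CPM (log2 fold change -1.95 ± 0.29 SE, edgeR adjusted p = 9.50e-04). Its exons overlap RBM10 on the opposite strand over 44.9% of their bases, and without strand information those reads cannot be told apart. UQCRQ, a small subunit of complex III (chromosome 5, 132866560 to 132868031, plus strand), lay at 275 and 413 CPM in si-circ235-1 and at 99.6 and 73.5 CPM in si-circ235-2, 3.98-fold lower (log2 fold change -1.99 ± 0.26 SE, edgeR adjusted p = 6.53e-04). COX6B1 and ATP5F1D again led complexes IV and V, at log2 fold changes of -2.11 and -1.76.

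Subunit genes of the respiratory chain are short, and length moved with the fold change in these libraries. The median transcript length was 751.5 bases for the 80 members and 2557 bases for 12192 protein-coding genes tested, and the median of the longest coding sequence was 454.5 and 1422 bases. Over 14386 genes the log2 fold change of si-circ235-2 against NC had a Spearman rho of 0.44 with transcript length and of -0.22 with GC content, as a description across genes of the same libraries. Under si-circ235-1 rho was 0.00 with length and -0.25 with GC content. What produced the relation with length was not tested.

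The dependence on transcript length and GC content was therefore fitted as a curve in each library and taken out through offsets before the edgeR test. A relation with coding length remained. For si-circ235-2 against NC, rho was then 0.06 with transcript length and 0.20 with coding length over all genes. Over the members rho with coding length was 0.28, so the counts below are not free of length. Under si-circ235-2 against NC, 52 of 80 members were then lower at the threshold, against 14.6% of all genes, and 2 were higher (NDUFA7 and SDHC), against 10.8%. The median log2 fold change was -0.64, about 1.56-fold lower, and -0.05 over all genes. Of the 58 genes called lower before, 49 were called again, and 3 were called only after the removal. Complex III had 8 lower, complex I had 24, complex IV 10 and complex V 10, and complex II none. SDHC, then at 0.60 (edgeR adjusted p = 0.0247), was fitted with 460 bases, the median over its transcripts. That is under its longest coding sequence of 507 bases, and the same holds for NDUFS3 and NDUFS8. Whether these lengths shaped their values was not tested.

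Within complex I the accessory subunits then had a median of -0.79 with 22 of 30 lower, and the core subunits a median of -0.12 with 2 of 7 lower. Against si-circ235-1 the same setting gave -0.87 with 23 of 30 lower and -0.62 with 4 of 7 lower, and the difference between the roles was not tested. NDUFS7 moved from -1.15 to -0.12 and NDUFS8 from -1.39 to -0.52, and both lost the call, while NDUFV1 stayed called at -0.74 (edgeR adjusted p = 0.0126). ATP5F1D went from -1.88 to -0.61 and remained called, and COX6B1 remained at -1.51. UQCRFS1 moved in the opposite sense, from -0.61 to -1.19.

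For si-circ235-2 against si-circ235-1 the removal left 60 members lower, against 23.7% of all genes, and 2 higher (SDHC and UQCRC2), against 17.3%, with a median of -0.85. For si-circ235-1 against NC it gave 9 members higher, against 9.32% of all genes, and 0 lower, against 6.13% (edgeR, with 3 members lower at an unadjusted p under 0.05). Those 9 were NDUFAB1, NDUFS3, NDUFS8, UQCRC1, UQCRFS1, UQCRQ, COX7A2, ATP5MG and ATP5PF, a share close to that of all genes.

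The members were also set beside protein-coding genes of like coding length, without any model of the trend. Level and GC content were not matched, and the share called depends on level as well. Among genes with a coding sequence under 300 bases, 20 of 21 members were lower under si-circ235-2, 95.2%, against 48.5% of all 206 protein-coding genes of that length. From 300 to under 500 bases the shares were 73.1% of 26 members and 42.3% of 757 genes, and from 500 to under 1000 bases 68.2% of 22 members and 29.4% of 2734 genes. At 1000 bases and over they were 36.4% of 11 members and 9.88% of 8483 genes. The member share fell with length, and so did that of all protein-coding genes. From the shortest class to the longest, the median log2 fold changes of the members were -1.11, -0.89, -0.98 and -0.36. Those of all protein-coding genes were -0.74, -0.60, -0.32 and 0.19.

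**Figure D4:**
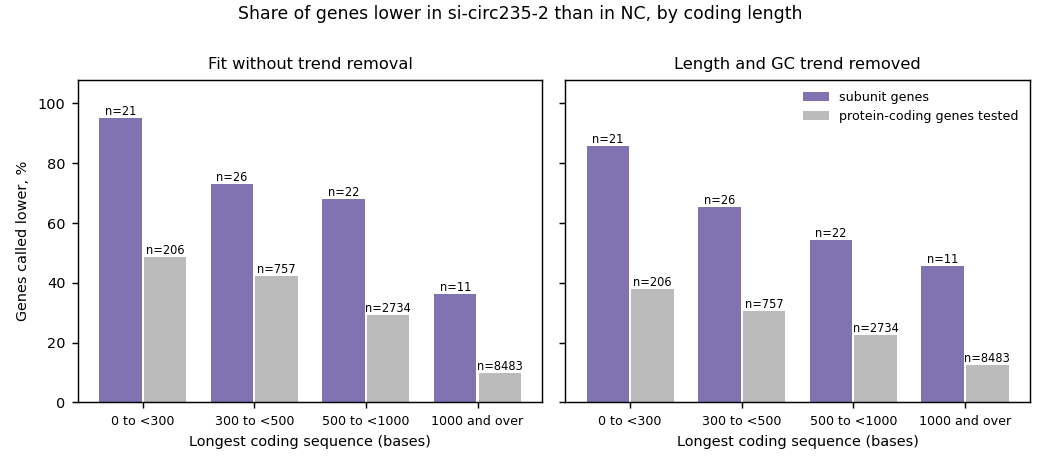
Percent of genes called lower by edgeR in si-circ235-2 against NC (vertical axis) in 4 classes of coding length in bases (horizontal axis), for the subunit genes and for all protein-coding genes tested, before (left) and after (right) the removal of the length and GC trend, with the number of genes above each bar. In every class the subunit bar is the taller, from 95.2% against 48.5% under 300 bases to 36.4% against 9.88% at 1000 bases and over before the removal.

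Other genes of the same organelle were set beside the subunits. Against NC, si-circ235-2 had 15.7% of all genes tested called lower and 15.7% higher. With the length and GC trend removed these shares were 14.6% and 10.8%. Against si-circ235-1 they were 18.6% lower and 21.1% higher, and 23.7% and 17.3% with the trend removed. The 13 subunits encoded by mitochondrial DNA had a median log2 fold change of 0.02 under si-circ235-2 against NC, with 3 higher and 2 lower. MT-ND4L, a complex I subunit, lay at 34.8 and 86.4 CPM in NC, 45.0 and 35.7 CPM in si-circ235-1, and 436 and 552 CPM in si-circ235-2 (log2 fold change 3.03 ± 0.36 SE, edgeR adjusted p = 0.00179). MT-ATP8, a complex V subunit, lay at 2.10 and 2.51 CPM in NC and at 15.6 and 19.6 CPM in si-circ235-2 (log2 fold change 2.93 ± 0.33 SE, edgeR adjusted p = 0.00179). Each of these genes overlaps a neighbour on the same transcript, MT-ND4 and MT-ATP6, whose log2 fold changes were 0.11 and 0.00 without a call. How reads in the overlap were assigned is not stated, and whether the overlap bears on these rises was not tested. The remaining gene of the list called higher was not examined for such an overlap. The largest falls were those of MT-CO3 at -0.83 and MT-ND3 at -0.73, with edgeR adjusted p of 0.0457 and 0.0411. No gene of this list was called lower when a library was left out, except without replicate 1 of si-circ235-2, and with the trend removed MT-ND3 was at -0.18 (edgeR adjusted p = 0.581).

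Assembly factors, which build the complexes without staying in them, were lower in 19 of 48 tested genes under si-circ235-2, against 15.7% of all genes. Of the list 0 were higher, and the median was -0.57. UQCC2, needed for complex III assembly, fell by 1.62 on the log2 scale, and PET100, a complex IV factor, by 2.21 at 3.74 CPM or less. Without NC replicate 1 the median of the list was -0.31, and nearly all of these calls were lost. With the trend removed 15 were lower and 1 higher, against 14.6% and 10.8% of all genes. In si-circ235-2 against si-circ235-1, 16 were lower, against 18.6% of all genes. They were led by SDHAF2, a complex II factor, at -2.36, and by SCO2, a copper chaperone of complex IV, at -2.16 and at most 1.34 CPM.

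Of 11 tested regulators of respiratory genes, 2 were lower under si-circ235-2 and 0 higher, near the 15.7% of all genes called lower, with a median of 0.01. With the length and GC trend removed 3 were lower, YY1 among them, and the median was -0.22. Against si-circ235-1, 2 rose and 2 fell (median -0.23), and once the trend was removed 1 rose and 4 fell (median -0.42). TFB1M, a methyltransferase of the mitochondrial ribosome, lay at 12.3 and 12.8 CPM in NC and at 4.54 and 5.88 CPM in si-circ235-2 (log2 fold change -1.27 ± 0.25 SE, edgeR adjusted p = 0.00490). POLRMT, the mitochondrial RNA polymerase, fell by 0.65. Against si-circ235-1, TFB1M fell by 1.502 and POLRMT by 0.66, while the coactivators PPARGC1B and PPRC1 rose by 0.90 and 0.81. PPARGC1A was at 0 counts.

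Under si-circ235-2, 2 of 13 enzymes of the citric acid cycle rose and 3 fell (median -0.36), beside the 15.7% of all genes called in each direction. With the length and GC trend removed 1 rose and 5 fell (median -0.17). CS, citrate synthase, rose by 0.69 and IDH3A, the catalytic subunit of the NAD-dependent isocitrate dehydrogenase, by 1.11, and with the trend removed CS was no longer called, at 0.17 (edgeR adjusted p = 0.323). IDH3G, a regulatory subunit of the same enzyme, fell by 1.06 and MDH2, mitochondrial malate dehydrogenase, by 0.81. Without NC replicate 1 none of the 13 was called. Against si-circ235-1, 3 were higher, led by CS at 1.09, and 5 were lower, led by IDH3G at -1.13 and then SUCLA2, a subunit of succinyl-CoA ligase, with an edgeR adjusted p of 0.0392.

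Of 8 related genes outside the subunit rule, 4 were lower under si-circ235-2 against NC, beside 15.7% of all genes, with a median of -0.94. That median was -0.63 without NC replicate 1, and these calls were lost there. With the length and GC trend removed 3 were lower, with a median of -0.36, and HIGD1A moved from -0.77 to -0.21 and was no longer called (edgeR adjusted p = 0.352). ETFB, which feeds electrons from fat and amino acid oxidation into the chain, fell by 1.42 and HIGD2A, a complex IV assembly and supercomplex factor, by 1.14. HIGD1A, a hypoxia-induced partner of complex IV, was the single gene of these lists called under si-circ235-1 with all libraries and no trend removed (98.5 and 102 CPM in NC, 154 and 192 CPM in si-circ235-1, log2 fold change 0.78 ± 0.18 SE, edgeR adjusted p = 0.0341), and it fell by 1.55 in si-circ235-2 against si-circ235-1. Leaving out any 1 of the NC or si-circ235-1 libraries ended the first of these calls. With the trend removed ETFA, SDHAF2 and TMEM70 were also called higher there and ACAD9 lower, named after their values were seen. In si-circ235-2 against si-circ235-1, 6 of the 8 related genes were lower, against 18.6% of all genes, with ETFB at -1.74.

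**Figure D5:**
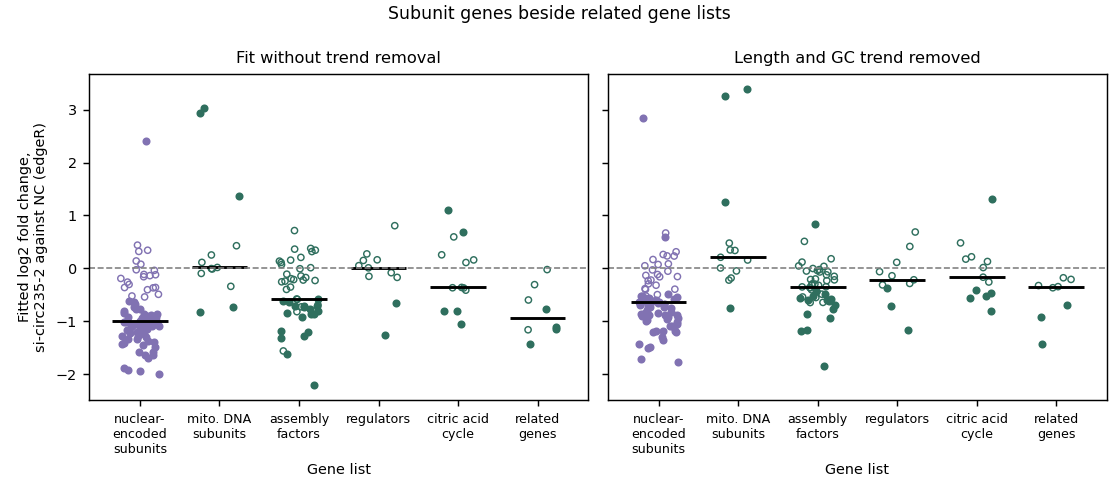
Fitted log2 fold change of si-circ235-2 against NC (vertical axis) for the nuclear-encoded subunit genes and 5 related lists (horizontal axis), before (left) and after (right) the removal of the length and GC trend, with filled points for genes called by edgeR at an adjusted p under 0.05 and black bars for medians. The medians before the removal are -0.998 for the subunits, 0.02 for the subunits of mitochondrial DNA, -0.57 for assembly factors, 0.01 for regulators, -0.36 for the citric acid cycle and -0.94 for the related genes.

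Many genes of the respiratory chain carry sites for the transcription factors NRF1, YY1 and the ETS factor GABP near their start. RefSeq promoters, from 250 bases before to 50 after the start on GRCh38.p14, were found for 65 of the 80 tested members. The NRF1 word CGCATGCG, which reads the same on both strands, was in 10 of these 65 (15.4%) and in 4.0% of 9924 promoters of protein-coding genes tested. The YY1 word AAGATGG was in 24.6% against 7.6%, and the ETS word CCGGAAG, whose end can overlap the start of the YY1 word, in 30.8% against 19.8%, both searched on both strands. Among members called lower under si-circ235-2 the shares were 12.8%, 19.1% and 25.5% of 47 promoters, and among those not called lower 22.2%, 38.9% and 44.4% of 18. These are matches of letters, and binding was not measured.

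Of the 6 members called lower with the NRF1 word, 4 are shown with 30 bases around it, to show where the word lies. The bases run 5′ to 3′ on the strand of the gene, with the word in capitals. These 4 genes need not be those with the largest falls. They were picked for both the word and the fall, so no relation between them can be read from these genes. They lie at chr5:1801351-1801380 (plus), chr9:122159764-122159793 (minus), chr19:1383822-1383851 (plus) and chr12:53676106-53676135 (minus), in the order given.
NDUFS6: cagaagccgtgCGCATGCGttagcgctaag
NDUFA8: gttgccggatgCGCATGCGcaggcgccgtg
NDUFS7: gttccggtttcCGCATGCGctccgagccgc
ATP5MC2: ggcccgggtcaCGCATGCGctgagccttcc
The log2 fold changes of these genes under si-circ235-2 were -1.49, -1.16, -1.15 and -1.10. The messages of NRF1, YY1 and GABPA themselves had log2 fold changes of 0.27, 0.15 and 0.01 with no call. With the length and GC trend removed the sign turned for each, to -0.31, -0.71 and -0.06, and YY1 was called lower (edgeR adjusted p = 0.00699). The si-circ235-2 libraries of GABPA stood apart from each other at 5.43 and 19.1 CPM.

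Since circ235 was proposed to hold back miR-330-5p, the members were also searched for its seed match. The mature sequence is given 5′ to 3′ with its seed, bases 2 to 8, in capitals (RefSeq, GRCh38.p14, chr19:45639049-45639070, minus strand).
hsa-miR-330-5p: uCUCUGGGccugugucuuaggc
For each gene the longest annotated 3′ UTR of its basic protein-coding transcripts was searched. The complement of the seed, CCCAGAG, was in that UTR of 8 of the 80 members, against 20.5% of 12142 protein-coding genes tested. Its median length was 446.5 and 1342 bases. For SDHC it had 12907 bases and for NDUFS1 9368 bases, and whether these cells use those forms was not tested. The 8 genes were ATP5F1A, NDUFA2, NDUFA9, NDUFS1, SDHC, UQCR10, UQCR11 and UQCRC2. Their median log2 fold change was -0.08 under si-circ235-1, against 0.18 for members without the word, and -0.69 under si-circ235-2, against -0.998. Over all protein-coding genes tested, the medians with and without the word were -0.055 and -0.006 under si-circ235-1, and 0.197 and -0.033 under si-circ235-2. Of the 58 members called lower under si-circ235-2, 4 had the word (6.9%), as had 4 of the 22 not called lower (18.2%).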

How the data were processed

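Polyadenylated RNA of T24 cells was captured by oligo dT and sequenced unstranded, and the authors deposited counts of reads per Ensembl gene for 6 libraries, as whole numbers without normalization. The submitters' processing notes name FastQC, cutadapt, STAR and hg38; for the counter, the annotation and any filter, nothing is stated in the sources used here. Groups and replicate numbers came from the labels. Symbols and lengths came from GENCODE release 29, which held 99.55% of the identifiers; length and GC content were medians over a gene's basic protein-coding transcripts.

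Counts were fitted in R 4.3.3 with edgeR 4.0.16 (filterByExpr, TMM, quasi-likelihood test, 1 mean per condition over all 6 libraries), with Benjamini-Hochberg adjustment over 14415 genes and a threshold of 0.05. The trend over length and GC content was a spline with 5 degrees of freedom each. Counting error was small beside the spread of 2 libraries per condition. The fits were tested on simulated data in which 200 genes were changed. Of log2 changes of 1, 26.8% were recovered for si-circ235-1 against NC and 42.9% for si-circ235-2 against NC. Between the siRNAs 35.9% were recovered. Of log2 changes of 2, 88.8% to 91.4% were recovered. Many changes of 1 would thus be missed. Some genes counted in the totals are not reported here by name.

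The members and gene lists were chosen with earlier results of these data known. Named members were, for each comparison and complex, the called gene with the largest rise and fall at a mean of at least 5 CPM, plus genes chosen by role; of other lists, up to 2 rises and 2 falls were named. Alternatives were the 2 conditions alone, DESeq2 1.42.0, library totals in place of TMM factors, all genes with counts, the replicate block, length or GC trends (the single trends chosen after seeing the data) and each library left out.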

Additional observations from a re-analysis of the deposited data

How the results depend on the processing

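For si-circ235-2 against NC, the count of members lower was 58 and stayed between 43 (length trend alone removed) and 63 (GC trend alone removed) with every library kept, and between 17 and 58 with each library left out, the lowest being without NC replicate 1. The median of -0.998 became -0.73 without TMM factors, -0.64 with the length and GC trend removed and -0.59 with the length trend alone, and ran from -1.18 to -0.74 with each library left out. Without TMM factors the median of all genes itself moved to 0.25 (3173 genes higher and 1294 lower, against 2270 and 2260), and 48 members stayed lower. The count higher was 1 (NDUFA7); it was 3 without TMM factors, 2 with either length trend removed, 0 with the replicate block and DESeq2, and 0 to 1 with each library left out. For si-circ235-2 against si-circ235-1, the median of -1.12 became -0.79 without TMM factors, -0.85 with the length and GC trend removed and -0.84 with the length trend alone. The count higher there was 3 without TMM factors, 2 with the length and GC trend removed, with the length trend alone and with the 2 conditions alone, 0 with the GC trend alone, and 0 to 1 with each library left out. For si-circ235-1 against NC, the count higher was 9 with the length and GC trend removed, 7 with the length trend alone and 2 with DESeq2. The cause of these moves was not tested, apart from the rescaling that leaving out TMM factors makes. Same-numbered libraries had correlations of -0.12, 0.20 and 0.19 between conditions, so the numbers were not taken to pair them. The replicate block gave 58 members lower against NC with a median of -0.997, 57 of them genes called without it. Each lone library left in a condition was assumed to vary like the other conditions. With 2 libraries per condition, the number of libraries limits these results more than depth does.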
